A study of Mus musculus with 8 samples.

Results

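The genes described here are 10 genes of the primary (azurophil) granule of neutrophil precursors and of the inhibitors that act on its proteases: Mpo, Elane, Prtn3, Ctsg, Srgn, Slpi, Serpinb1a, Ms4a3, Cst7 and Nkg7. They were chosen by symbol, and all 10 were found among the 55291 genes of the deposited count table and passed the filter on low counts. The cells sequenced were granulocyte-macrophage progenitors of a leukaemia (L-GMP), sorted from the bone marrow of mice with acute myeloid leukaemia (AML) driven by the fusion oncogene MLL-AF9. The sort took cells with c-Kit, CD16/32 and CD34 but without lineage markers or Sca-1, which the labels call leukaemia stem cells. KO libraries (n = 4) came from Dek fl/fl mice that also carried MX1-Cre, and FL libraries (n = 4) from Dek fl/fl mice without it. Both groups carried the MLL-AF9 leukaemia and the floxed Dek alleles. Only KO mice carried MX1-Cre, a transgene whose promoter is active in blood cells and in many other cells once interferon is present, so an effect of Cre and loss of Dek cannot be told apart. The labels give no age or strain, and do not say whether libraries of 1 group are separate animals or leukaemias, so the p-values reflect a spread among libraries that may be technical.

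Primary granules form at the promyelocyte stage, and the genes for their contents are already transcribed in granulocyte-macrophage progenitors. Myeloperoxidase makes hypochlorous acid, and the serine proteases neutrophil elastase, proteinase 3 and cathepsin G are stored as active enzymes after the dipeptidyl peptidase cathepsin C has trimmed them. Serglycin, a proteoglycan core whose sulphated sugar chains bind these basic proteins, retains several of them in the granule. Secreted and cytosolic inhibitors such as SLPI and SERPINB1 block the proteases once these leave the granule.

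The start regions of 3 protease genes and of the most strongly changed inhibitor are printed because these 4 genes carry the main contrast in the data. RefSeq windows of 250 bases upstream of the start (build GRCm38.p6) were found for 9 of the 10 genes. The bases of a window that lie in an annotated exon of the gene are not printed. For Slpi and Prtn3 the RefSeq start differs from the annotated gene start, and the windows lie inside the gene spans given below. Windows of Elane, Mpo, Nkg7 and Srgn also run past the annotated gene start. Capitals mark matches to 5 short letter patterns searched on both strands. For Elane (chr10:79886062-79886246, plus strand) and Prtn3 (chr10:79879417-79879613, plus strand), the capitals mark the pattern GAGGAA, a core of sites bound by PU.1. In Ctsg (chr14:56102575-56102824, minus strand) they mark GAGGAA and the RUNX pattern TGTGGT on the other strand. In Slpi (chr2:164356508-164356757, minus strand) they mark the C/EBP pattern TTGCNNAA on the other strand.
Elane: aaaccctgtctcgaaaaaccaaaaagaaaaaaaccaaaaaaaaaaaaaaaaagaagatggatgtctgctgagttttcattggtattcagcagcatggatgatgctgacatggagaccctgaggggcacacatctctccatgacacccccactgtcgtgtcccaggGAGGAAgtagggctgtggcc
Prtn3: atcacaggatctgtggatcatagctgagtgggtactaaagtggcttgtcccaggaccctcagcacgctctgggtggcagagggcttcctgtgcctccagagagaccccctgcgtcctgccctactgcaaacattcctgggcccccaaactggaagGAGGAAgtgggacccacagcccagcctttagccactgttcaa
Ctsg: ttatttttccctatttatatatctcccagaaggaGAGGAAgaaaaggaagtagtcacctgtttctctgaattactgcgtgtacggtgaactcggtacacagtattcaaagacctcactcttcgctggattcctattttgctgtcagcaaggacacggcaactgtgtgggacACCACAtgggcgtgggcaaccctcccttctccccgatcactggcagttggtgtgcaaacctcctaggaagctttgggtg
Slpi: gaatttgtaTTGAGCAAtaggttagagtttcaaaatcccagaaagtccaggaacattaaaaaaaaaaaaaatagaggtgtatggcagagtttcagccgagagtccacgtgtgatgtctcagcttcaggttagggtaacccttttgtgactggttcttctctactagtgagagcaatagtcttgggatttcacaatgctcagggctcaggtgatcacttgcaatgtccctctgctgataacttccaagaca

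The 4 peroxidase and protease genes Mpo, Elane, Prtn3 and Ctsg all had GAGGAA in their windows, and none of the other 5 genes with a window had it. Of all 32851 windows of the same length, 23.3% held it. The MYB pattern TAACNG was found in the windows of Elane and Mpo (19.8% of all windows), TGTGGT in those of Cst7, Ctsg, Nkg7 and Srgn (14.05%) and TTGCNNAA in that of Slpi alone (9.56%). The MYB matches of Elane and Mpo lie past the annotated gene start, and that of Elane is in the part not printed. The PBX-HOX pattern TGATNNAT was in none of the 9 (7.68% of all windows). The patterns do not overlap each other in the sequences shown. These matches describe letters in a window and are not evidence of binding.

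The groups differed in ways that bear on every value below. Library totals were 33941940 to 49736592 counts in KO and 44086524 to 58660705 in FL, and 30606 to 37801 genes had a count in KO against 24125 to 26053 in FL. Factors of the trimmed mean of M values (TMM) were 1.20 to 1.26 in KO and 0.68 to 0.91 in FL. Levels are given as counts per 1000000 counts (CPM) scaled by TMM, and folds are KO over FL. Under TMM the median log2 fold change of all 17418 tested genes was 0.05; when libraries were scaled by total counts alone it was 0.64, so a gene's direction can depend on the scaling. Dek averaged 22.5 ± 6.03 CPM in KO and 151.7 ± 22.7 CPM in FL (SD, n = 4 each; log2 fold change -2.75, SE 0.19, edgeR adjusted p = 1.7e-05), the direction the labels give. Transcripts of the sorted markers Kit (154 CPM in KO and 91.1 CPM in FL), Cd34 (461 and 710 CPM) and Fcgr3 (362 and 644 CPM) were present. Ly6a, which encodes Sca-1, was at 1.64 CPM in KO and 0.34 CPM in FL. Of the 5 sort marker genes tested, Fcgr2b included, 2 were called higher in KO and 2 lower, against 13% higher and 14.9% lower of all genes.

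Transcripts of both inhibitors of the serine proteases, of serglycin, of cathepsin G and of cystatin F were lower in KO L-GMP, while none of the 10 genes was called higher. In edgeR's quasi-likelihood test, adjusted over all tested genes by the Benjamini-Hochberg method with a threshold of 0.05, 5 of the 10 genes fell (Slpi, Cst7, Serpinb1a, Srgn and Ctsg) and 0 rose, and the median log2 fold change of the 10 was -0.69. Among all tested genes 14.9% were called lower, 13% higher and 27.9% in either direction. The KO and FL libraries did not overlap for 4 of the 10 genes, against 30.9% of all tested genes. Without KO replicates 2 and 3, in which eosinophil markers other than Siglecf were highest, 4 of the 10 fell and 0 rose. In that fit 1342 of all 18367 tested genes were lower and 1000 higher. A bulk level cannot tell fewer cells that express a gene from less RNA per cell.

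**Figure D1:**
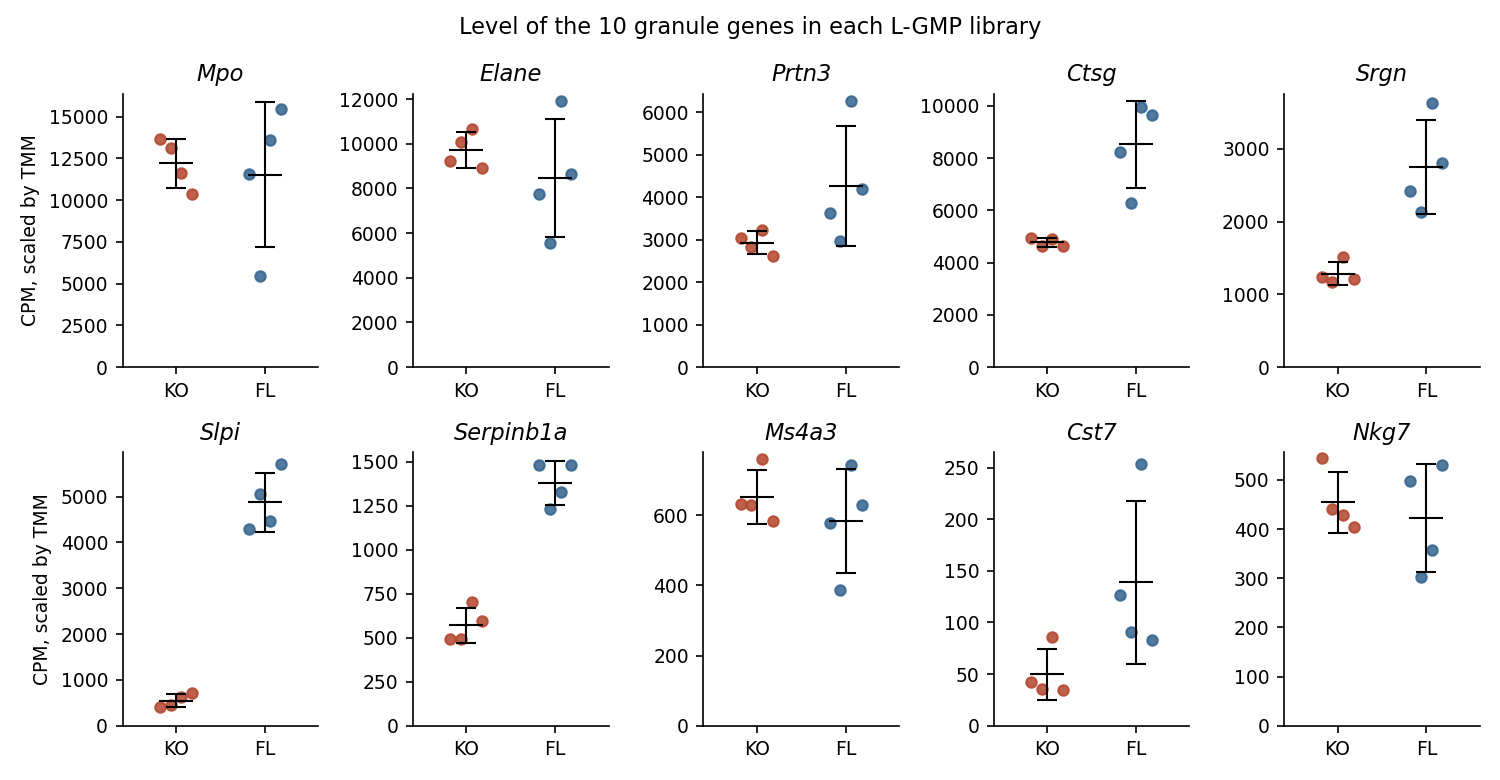
Each panel shows 1 gene, with its level in CPM scaled by TMM in each KO library (left, red points) and FL library (right, blue points). Horizontal ticks are means and bars are SD (n = 4 each). The KO points of Slpi, Serpinb1a, Srgn and Ctsg all lie below the FL points. Those of Mpo, Elane, Prtn3, Cst7, Ms4a3 and Nkg7 overlap the FL points.

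Mpo encodes myeloperoxidase, the peroxidase that defines the primary granule (chromosome 11 from 87793581 to 87804413, mm10). It stood at 13686, 13100, 11634 and 10395 CPM in KO replicates 1 to 4, against 11597, 5484, 13594 and 15474 CPM in FL replicates 1 to 4. The FL libraries spanned the whole KO range, with FL replicate 2 lowest of all 8 libraries and FL replicate 4 highest. The means were 12204 ± 1483 CPM in KO and 11537 ± 4335 CPM in FL (SD, n = 4 each). Its log2 fold change came to 0.08 (SE 0.27, edgeR adjusted p = 0.85) and turned to -0.15 without FL replicate 2.

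Elane, which encodes neutrophil elastase (chromosome 10 from 79886247 to 79888215), was also not called. Its levels were 9207, 10065, 10660 and 8907 CPM in KO, against 7759, 5564, 11931 and 8667 CPM in FL. FL replicate 3 was highest and FL replicate 2 lowest, and the KO libraries lay between them. The means were 9710 ± 801 CPM in KO and 8480 ± 2644 CPM in FL (log2 fold change 0.20, SE 0.21, edgeR adjusted p = 0.52).

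Prtn3, which encodes proteinase 3, lies next to Elane (chromosome 10 from 79874476 to 79883174) and had 3036, 2827, 3234 and 2611 CPM in KO, against 3623, 2978, 6262 and 4207 CPM in FL. Only FL replicate 2 fell within the KO range. The means were 2927 ± 268 CPM in KO and 4268 ± 1421 CPM in FL, and the log2 fold change of -0.54 (SE 0.21) missed the threshold (edgeR adjusted p = 0.075). The gene passed as lower with DESeq2 (-0.56, adjusted p = 0.045), without the count filter (-0.59, adjusted p = 0.0020) and without FL replicate 2 (-0.69, adjusted p = 0.023), and its log2 fold change was 0.06 under total-count scaling (adjusted p 0.0020 to 0.75 over all 15 alternatives). Prtn3 overlaps Plppr3 on the opposite strand, which averaged 196 CPM in KO and 147 CPM in FL, and the strand setting of the counting is not given, so reads in the overlap may belong to either gene.

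Ctsg, which encodes cathepsin G (chromosome 14 from 56099881 to 56102574), was the protease gene that fell. It had 4927, 4630, 4912 and 4647 CPM in KO, against 8225, 6278, 9938 and 9645 CPM in FL. All KO libraries were lower than the lowest FL library, and the KO libraries differed little among themselves. The means were 4779 ± 163 CPM in KO and 8521 ± 1672 CPM in FL, a log2 fold change of -0.83 (SE 0.16, edgeR adjusted p = 0.0033). The call was lost under total-count scaling (-0.23, adjusted p = 0.092) and without KO replicates 2 and 3 together (-0.83, adjusted p = 0.054), over a range of adjusted p from 7.4e-07 to 0.42 across the alternatives.

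Srgn encodes serglycin (chromosome 10 from 62493833 to 62527451) and fell to 1233, 1170, 1520 and 1214 CPM in KO, against 2419, 2136, 3634 and 2807 CPM in FL. The groups did not overlap. The means were 1284 ± 159 CPM in KO and 2749 ± 651 CPM in FL (log2 fold change -1.10, SE 0.17, edgeR adjusted p = 0.0012). Under total-count scaling the gene kept its call at -0.49 (adjusted p = 0.011).

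Slpi, the secretory leukocyte protease inhibitor, which blocks elastase and cathepsin G, showed the largest change of the 10 genes (chromosome 2 from 164354070 to 164389095). Its levels were 402, 449, 621 and 705 CPM in KO, against 4289, 5053, 4462 and 5708 CPM in FL. The highest KO library was far below the lowest FL library. The means were 544 ± 143 CPM in KO and 4878 ± 643 CPM in FL, an 8.96-fold lower level in KO (log2 fold change -3.16, SE 0.21, edgeR adjusted p = 1.3e-05). Slpi passed as lower under all 15 alternatives (log2 fold change -3.33 to -2.56, adjusted p 4.9e-79 to 0.020), total-count scaling included, and was the only one of the 10 genes to pass when genes detected entered as a covariate. Ctsg stood at -0.73 (adjusted p = 0.42), Srgn at -1.25 (0.19) and Cst7 at -2.48 (0.21) with that covariate. The number of genes detected separates the groups, so a call lost with it cannot tell library breadth from a difference between KO and FL.

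Serpinb1a, the mouse counterpart of human SERPINB1 and a cytosolic inhibitor of elastase, proteinase 3 and cathepsin G (chromosome 13 from 32842092 to 32851185), fell as well. It had 496, 491, 702 and 595 CPM in KO, against 1482, 1231, 1330 and 1483 CPM in FL. The groups did not overlap. The means were 571 ± 99.7 CPM in KO and 1381 ± 124 CPM in FL, a 2.42-fold lower level in KO (log2 fold change -1.28, SE 0.14, edgeR adjusted p = 1.8e-04). With total-count scaling it was -0.68 (adjusted p = 0.0018), and the covariate ended the call (-1.41, adjusted p = 0.091). Its paralogs Serpinb1b and Serpinb1c did not pass the count filter, and reads that several copies share may have been counted for either.

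Cst7 encodes cystatin F, an inhibitor of lysosomal cysteine cathepsins that include cathepsin C (chromosome 2 from 150570415 to 150578944). It was the least abundant of the 10 genes, at 42.7, 35.8, 86.3 and 34.4 CPM in KO, against 127, 90.9, 254 and 83.5 CPM in FL. KO replicate 3 lay just above FL replicate 4, and the other KO libraries lay below all FL libraries. The means were 49.8 ± 24.6 CPM in KO and 139 ± 78.9 CPM in FL (log2 fold change -1.48, SE 0.39, edgeR adjusted p = 0.016). Leaving out KO replicate 2 ended the call (-1.35, adjusted p = 0.052), and without FL replicate 3 it held at -1.03 (adjusted p = 0.040; adjusted p 4.4e-20 to 0.21 over all alternatives).

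Ms4a3, a membrane protein gene that marks granulocyte-monocyte progenitors (chromosome 19 from 11629496 to 11640851), had 633, 629, 762 and 583 CPM in KO, against 578, 386, 744 and 629 CPM in FL. Nkg7, a granule membrane gene first known from natural killer cells (chromosome 7 from 43437073 to 43438249), had 545, 441, 428 and 404 CPM in KO, against 498, 303, 358 and 530 CPM in FL. The groups overlapped for both genes. The log2 fold changes were 0.16 for Ms4a3 (SE 0.18, edgeR adjusted p = 0.55) and 0.11 for Nkg7 (SE 0.18, edgeR adjusted p = 0.70).

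**Figure D2:**
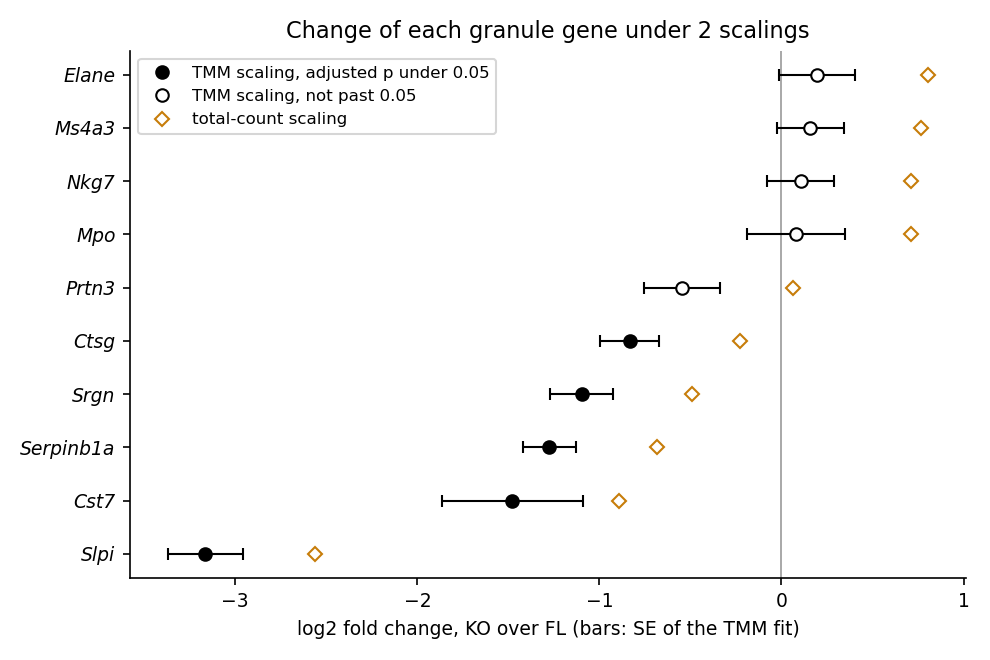
The log2 fold change of KO over FL is shown for each of the 10 genes under TMM scaling (circles, filled where the edgeR adjusted p is under 0.05, bars SE) and under total-count scaling (diamonds). Total-count scaling moves every gene to the right by about the same amount, and the order of the genes, from Elane and Ms4a3 at the top to Slpi at the bottom, differs little between the scalings.

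Under total-count scaling, where 9012 of all tested genes were called higher and 886 lower, Mpo (0.71), Elane (0.81), Ms4a3 (0.77) and Nkg7 (0.71) passed as higher, and Slpi, Cst7, Serpinb1a and Srgn as lower. Relative to the median of all genes under that scaling, these 4 rises were 0.08, 0.17, 0.13 and 0.07 on the log2 scale, and the falls were -3.20 for Slpi, -1.53 for Cst7, -1.32 for Serpinb1a and -1.13 for Srgn. Ctsg stood at -0.86 and Prtn3 at -0.57 on the same measure. A change of factors moves all genes of a library alike, so the spacing between the 10 genes is nearly the same under both scalings by construction. Mpo, Elane, Ms4a3 and Nkg7 were called under total-count scaling alone of the 15 alternatives.

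Shares of all counts in a library, which are the levels behind total-count scaling and carry its shift, were as follows. Mpo took 1.497% ± 0.18 of counts in KO and 0.915% ± 0.28 in FL, and Elane 1.19% ± 0.10 in KO and 0.683% ± 0.19 in FL (SD, n = 4 each). Ctsg took 0.586% ± 0.0097 in KO and 0.686% ± 0.093 in FL, and Slpi 0.0668% ± 0.018 in KO and 0.396% ± 0.046 in FL. The 10 genes together held 4.07% ± 0.23 of counts in KO and 3.45% ± 0.61 in FL.

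Ratios of raw counts within a library need no scaling between libraries; they are given as values with no test, since the genes were chosen with results known, and they are per read, not per length. For every 100 reads of Elane, Prtn3 and Ctsg together, Slpi had 2.34, 2.56, 3.30 and 4.36 reads in KO, against 21.9, 34.1, 15.9 and 25.3 reads in FL. The inhibitor's share relative to the 3 proteases was thus lower in each KO library than in any FL library. Serpinb1a had 3.27 ± 0.50 reads per 100 protease reads in KO and 6.79 ± 1.55 in FL, and Srgn 7.36 ± 0.59 in KO and 13.03 ± 0.95 in FL. Both were without overlap, but how many ratios of other genes would be so was not computed. The 2 inhibitors also shifted against each other, with 0.949 ± 0.16 Slpi reads per Serpinb1a read in KO and 3.55 ± 0.54 in FL.

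Among the enzymes, Elane and Mpo kept their proportion while Ctsg and Prtn3 lost ground to them. There were 0.804 ± 0.11 Elane reads per Mpo read in KO and 0.780 ± 0.20 in FL, with overlapping groups. Elane reads per Ctsg read were 1.87, 2.17, 2.17 and 1.92 in KO, against 0.943, 0.886, 1.20 and 0.899 in FL. Elane reads per Prtn3 read were 3.33 ± 0.22 in KO and 1.99 ± 0.13 in FL, and Mpo reads per Ctsg read 2.55 ± 0.29 in KO and 1.31 ± 0.31 in FL. None of these 3 ratios overlapped between groups. The share of other gene ratios without overlap was not computed, and 30.9% of single tested genes did not overlap under TMM. The neighbouring genes Elane and Prtn3 thus differed in their ratio between KO and FL, although neither was called under TMM. Within groups, both varied with the mean of the other 3 enzyme genes (Pearson r 0.93 for Elane and 0.85 for Prtn3). Leaving out each library in turn, or KO replicates 2 and 3 together, kept the log2 difference of Elane per Ctsg between 0.96 and 1.16, that of Elane per Prtn3 between 0.69 and 0.78 and that of Slpi per Elane between -3.66 and -3.23.

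**Figure D3:**
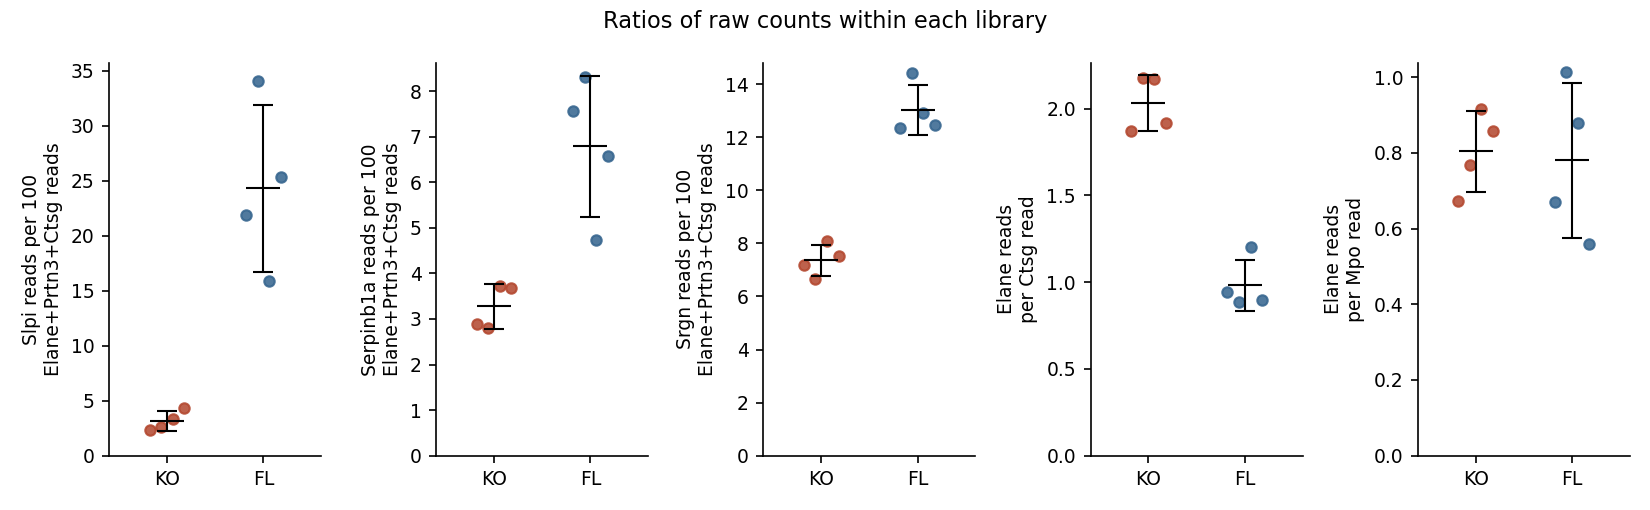
Each panel shows a ratio of raw counts within a library for KO (left, red points) and FL (right, blue points), with means and SD (n = 4 each). Slpi, Serpinb1a and Srgn per 100 reads of the 3 proteases are lower in every KO library, Elane per Ctsg is higher in every KO library, and Elane per Mpo overlaps.

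Levels per kilobase of exon allow the genes to be set against each other. The length counts all annotated exons of a gene, used in these cells or not, so the order is approximate. In KO the order of mean levels was Elane (9868 CPM per kb), Ctsg (4626), Mpo (3564), Prtn3 (1690), Srgn (585), Nkg7 (497), Slpi (461), Ms4a3 (346), Serpinb1a (248) and Cst7 (50.5). In FL it was Elane (8618 CPM per kb), Ctsg (8249), Slpi (4134), Mpo (3370), Prtn3 (2464), Srgn (1252), Serpinb1a (600), Nkg7 (462), Ms4a3 (310) and Cst7 (141). Elane and Ctsg stood apart in KO but did not differ beyond their spread in FL (SD 2687 and 1619 CPM per kb), and neither did Slpi and Mpo in FL (SD 545 and 1266 CPM per kb). Slpi and Nkg7 were closer than their SDs in KO (121 and 68.1 CPM per kb).

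Ranks within a library need no factor, but a rank depends on the levels of all other genes too. Among 21534 protein-coding genes ordered by reads per kilobase, Elane ranked 1 in all KO libraries and 1 to 5 in FL, and Ctsg ranked 2 in all KO libraries and 1 to 4 in FL. Slpi ranked 33 to 81 in KO and 8 to 11 in FL. Mpo ranked 3 to 4 in KO and 10 to 25 in FL, and Prtn3 10 to 12 in KO and 13 to 24 in FL. Ms4a3 ranked 73 to 94 in KO and 175 to 265 in FL, and Nkg7 36 to 64 in KO and 106 to 177 in FL. These 4 genes thus ranked higher in every KO library than in any FL library. None of them was called under TMM, and the mean level of Prtn3 per kb was lower in KO. How many of all ranked genes separate the groups in this way was not computed, so the ranks alone do not show a rise. Slpi was thus an abundant transcript in both groups, though it gave up its place near the top in KO.

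The libraries of a group did not carry the granule genes at an even level. The mean centred log2 level of Mpo, Elane, Prtn3 and Ctsg was -0.60 in FL replicate 2, 0.43 in FL replicate 3, 0.21 in FL replicate 4 and -0.04 in FL replicate 1, and lay between -0.14 and 0.07 in the KO libraries. Across the 8 libraries, after each group's mean was subtracted, Ms4a3 had a Pearson r of 0.96 with that mean and Srgn 0.85, whereas Serpinb1a had 0.24 and Slpi -0.16. Cst7 had 0.54 and Nkg7 0.47. Of the 4 enzyme genes, each set against the mean of the other 3, Ctsg had 0.97, Elane 0.93, Prtn3 0.85 and Mpo 0.82. These correlations describe 8 libraries and carry no p, each library's genes share its depth and scaling, and most of the spread comes from FL replicates 2 and 3. So Srgn, which fell with the inhibitors, varied with the proteases among libraries of a group, and Slpi did not.

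The 5 other genes of 9225 compared whose pattern within groups was most like that of the 4 enzyme genes were Emid1 (r = 0.989), Hmga1b (0.984), Adssl1 (0.981), Ccdc88b (0.979) and St3gal3 (0.976). Emid1 passed as higher in KO, at 7.55 ± 1.31 CPM in KO and 2.46 ± 1.76 CPM in FL (log2 fold change 1.62, SE 0.50, edgeR adjusted p = 0.034), a call lost without KO replicate 1, 2 or 3 or FL replicate 1 (adjusted p 0.060 to 0.083). The other 4 were not called.

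Genes for other contents of the granule and lysosome were mostly lower in KO. Of 20 tested, 13 fell and 1 rose, against 14.9% lower and 13% higher of all genes. The median log2 fold change was -0.62 against 0.05 for all genes. Under total-count scaling 5 fell and 3 rose and the median was -0.03. Of all 17418 tested genes 886 fell and 9012 rose under that scaling, with a median of 0.64. Lamp1, a lysosomal membrane protein, averaged 506 ± 61.8 CPM in KO and 1370 ± 148 CPM in FL (log2 fold change -1.44, SE 0.13, edgeR adjusted p = 6.7e-05). The cysteine cathepsins Ctsz (-1.20, SE 0.12) and Ctsb (-1.10, SE 0.13) and the lysosomal mannosidase Man2b1 (-1.25, SE 0.14) also fell, with edgeR adjusted p of 1.1e-04, 2.7e-04 and 1.8e-04, and all of these kept their calls under total-count scaling. Ctsc, which encodes the cathepsin C that activates the serine proteases and was picked after its values were seen, averaged 101 ± 8.64 CPM in KO and 139 ± 1.43 CPM in FL (log2 fold change -0.46, SE 0.10, edgeR adjusted p = 0.0060), but stood at 0.13 under total-count scaling. Prss57, a further serine protease of these granules, was not called, at 451 ± 59.1 CPM in KO and 410 ± 76.2 CPM in FL (log2 fold change 0.14, SE 0.16, edgeR adjusted p = 0.54).

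Of 25 other inhibitors of serine and cysteine proteases in the table, 13 were tested, 3 fell and 2 rose (median log2 fold change -0.14), against 14.9% lower and 13% higher of all genes. Under total-count scaling 2 fell and 7 rose, with a median of 0.45. Of all 17418 tested genes 886 fell and 9012 rose there, with a median of 0.64. Cst3, which encodes the secreted cathepsin inhibitor cystatin C, averaged 462 ± 54.4 CPM in KO and 970 ± 236 CPM in FL (log2 fold change -1.07, SE 0.17, edgeR adjusted p = 0.0012). Serpinb6b passed as higher but was scarce, at 1.31 ± 0.51 CPM in KO and 0.02 ± 0.03 CPM in FL (edgeR adjusted p = 3.0e-04). Of the same domain family as Slpi, Wfdc17 fell and Wfdc21 rose. Wfdc17 averaged 4.17 ± 4.63 CPM in KO and 20.8 ± 12.7 CPM in FL (log2 fold change -2.31, SE 0.64, edgeR adjusted p = 0.020). Its KO replicate 4 held 11.1 CPM, still below the lowest FL library (11.7 CPM). Wfdc21 averaged 4.89 ± 6.09 CPM in KO and 0.43 ± 0.35 CPM in FL, and KO replicate 3 alone held 13.9 CPM. Its log2 fold change of 3.48 (SE 0.89, edgeR adjusted p = 0.015) was 1.95 and no longer called without KO replicates 2 and 3 (adjusted p = 0.11; 1.1e-20 to 0.98 over all alternatives).

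Serglycin carries chondroitin sulphate chains in neutrophil precursors, and of 15 tested genes for making such chains 5 fell and 1 rose (median log2 fold change -0.32). Of all genes 14.9% were lower and 13% higher. Chst12, a chondroitin sulphotransferase, averaged 184 ± 22.0 CPM in KO and 316 ± 16.8 CPM in FL (log2 fold change -0.78, SE 0.11, edgeR adjusted p = 7.4e-04), and Chst13, another, 42.9 ± 4.62 CPM in KO and 126 ± 52.4 CPM in FL (-1.55, SE 0.25, edgeR adjusted p = 0.0013). Csgalnact2, which starts the chain, had a log2 fold change of -0.66 (SE 0.13) and B4galt7, which builds its linker, of -0.53 (SE 0.11), both with an edgeR adjusted p of 0.0046. Under total-count scaling 1 of the 15 fell and 6 rose, against 886 lower and 9012 higher of all 17418 tested genes. There Chst12 (-0.19) and Csgalnact2 (-0.06) lost their calls, B4galt7 turned to 0.05 and Chst13 kept its call.

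Of 13 transcription factor genes known to act on primary granule genes, 2 fell and 0 rose (median log2 fold change -0.35), and 11 were not called. Among all tested genes 14.9% were called lower and 13% higher, so the falls were near the share of all genes. Spi1, which encodes PU.1, averaged 378 ± 34.7 CPM in KO and 580 ± 182 CPM in FL (log2 fold change -0.62, SE 0.20, edgeR adjusted p = 0.044), a call that ended when any single library other than FL replicate 2 was left out (adjusted p 0.055 to 0.11, and 2.6e-04 to 0.96 in the full set of alternatives). Gata2 averaged 42.2 ± 7.25 CPM in KO and 67.8 ± 12.5 CPM in FL (-0.68, SE 0.16, edgeR adjusted p = 0.010), and stood at -0.11 under total-count scaling. The counts were 4 higher and 0 lower under total-count scaling, where 9012 of all 17418 tested genes were higher and 886 lower.

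Neutrophils make secondary and tertiary granules after the primary ones, and of 16 tested genes of these granules 2 rose and 2 fell, against 13% higher and 14.9% lower of all genes. Under total-count scaling 7 rose and 2 fell, where 9012 of all 17418 tested genes rose and 886 fell. Retnlg, a resistin-like gene of late neutrophils, averaged 7.30 ± 3.998 CPM in KO and 0.55 ± 0.20 CPM in FL (log2 fold change 3.72, SE 0.47, edgeR adjusted p = 3.4e-04). Mmp9, a gelatinase, averaged 5.95 CPM in KO and 1.78 CPM in FL (1.73, SE 0.49, edgeR adjusted p = 0.023), a call that ended without KO replicate 3 (1.10) or FL replicate 3 (1.53) and with the replicate number as a block (1.49, adjusted p = 0.090). Mmp8, a collagenase, averaged 5.09 ± 2.53 CPM in KO and 18.2 ± 5.43 CPM in FL (-1.84, SE 0.35, edgeR adjusted p = 0.0033), and Cybb, a subunit of the phagocyte oxidase, 275 ± 71.5 CPM in KO and 589 ± 118 CPM in FL (-1.10, SE 0.20, edgeR adjusted p = 0.0024). Summed over the list, levels were 907 to 4956 CPM in KO and 1291 to 4261 CPM in FL.

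**Figure D4:**
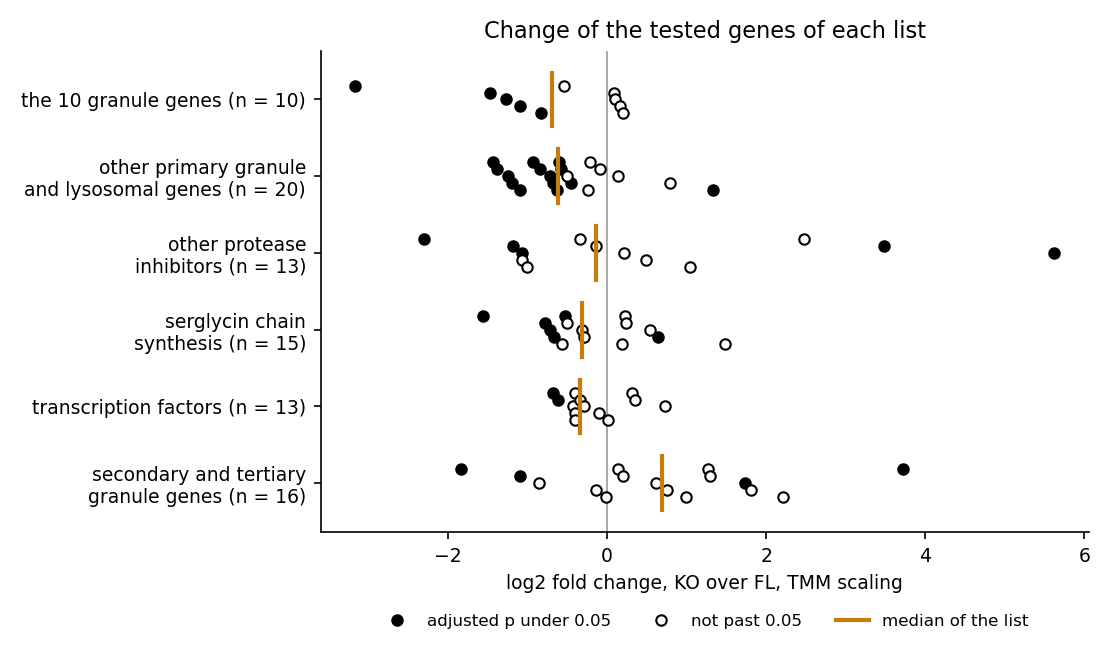
Each point is a tested gene and shows its log2 fold change of KO over FL under TMM scaling; filled points passed the edgeR test at an adjusted p of 0.05 and the orange ticks are list medians. Most of the granule and lysosome genes lie left of 0, Slpi lies farthest left, and the secondary and tertiary granule genes spread to both sides.

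Genes next to the enzyme genes were read within 100000 bases on either side. Around Mpo, 6 of 10 tested neighbours rose and 0 fell (median log2 fold change 0.97), while Mpo itself was not called. Tspoap1, a gene for a protein that binds the mitochondrial translocator protein, averaged 168 ± 37.1 CPM in KO and 38.8 ± 11.8 CPM in FL (log2 fold change 2.11, SE 0.23, edgeR adjusted p = 1.6e-04), and the eosinophil peroxidase gene Epx 114 ± 88.8 CPM in KO and 5.05 ± 5.65 CPM in FL (4.50, SE 0.90, edgeR adjusted p = 0.0041). Gm11505, an antisense gene inside Mpo, rose to 3.25 ± 0.72 CPM in KO, against 0.70 ± 0.41 CPM in FL (edgeR adjusted p = 0.0024), and unstranded counting could not tell its reads from those of Mpo. Around Elane and Prtn3, 2 of 17 tested neighbours rose and 2 fell, with the splicing regulator Ptbp1 (log2 fold change -1.03, SE 0.18) and Wdr18 (-0.93, SE 0.16) lower (edgeR adjusted p = 0.0019 and 0.0020). The shares of all genes were 13% higher and 14.9% lower. Scaling by total counts gave 7 higher and 1 lower among the 17 (median 0.48). Of all 17418 tested genes 9012 were higher and 886 lower under that scaling (median 0.64). Around Ctsg, 2 neighbours were tested and neither passed.

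Without KO replicates 2 and 3, 8 granule and lysosome genes fell and 1 rose, and 2 chain synthesis genes fell. No transcription factor gene passed and 4 neighbours of Mpo rose. In that setting 1000 of all 18367 tested genes were higher and 1342 lower. With genes detected as a covariate Serpinb6b alone passed among the named genes of these lists and loci.

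Markers of other cells moved with some of these results, and their part in them was not tested. The summed level of 9 eosinophil markers was 287 to 1348 CPM in KO and 121 to 227 CPM in FL, with 6 of 8 tested genes higher and 1 lower. Those of 9 mast cell and basophil markers summed to 29.8 to 55.1 CPM in KO and 89.6 to 230 CPM in FL. Of 3 tested, 1 was higher and 1 lower. Cpa3 fell (5.03 CPM in KO and 132 CPM in FL), Ms4a2 rose (2.75 and 0.78 CPM) and Mcpt8 was not called (25.2 and 20.0 CPM). The 11 monocyte and macrophage markers summed to 1411 to 2146 CPM in KO and 1500 to 2201 CPM in FL, with 2 of 9 tested genes higher and 5 lower. For B cell markers the sums were 78.2 to 102 CPM in KO and 89.0 to 118 CPM in FL, and for erythroid and megakaryocyte markers 3.53 to 25.2 CPM in KO and 10.3 to 15.8 CPM in FL. The 14 cytotoxic lymphocyte markers, which bear on Nkg7 and Cst7 because cytotoxic cells express both, summed to 1.91 to 3.28 CPM in KO and 0.52 to 1.17 CPM in FL; Gzma, Gzmk, Ncr1, Cd3g and Cd8a had no count in FL.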

How the data were processed

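Messenger RNA of sorted L-GMP was copied into cDNA, amplified as in Geo-seq and made into libraries with a transposase kit, per the labels' protocols. The deposited table holds the authors' raw read counts, 1 column per library and 1 gene symbol per line. The submitters' processing notes list Bowtie 0.12.9, HTSeq 0.13.5, DESeq2 and the build mm10 without role or order, and the sheet of counts carries the name featureCounts. The counting tool actually used, its strand setting and its treatment of multiply matching reads are therefore unresolved. Without molecular identifiers, copies made by PCR were counted too. Columns named WT were taken as FL, the only group without the knockout.

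KO was compared with FL in edgeR 4.0.16 (R 4.3.3) with TMM scaling, the default filterByExpr filter and quasi-likelihood F tests without covariates. P-values were adjusted over the 17418 genes that passed the filter (Benjamini-Hochberg, threshold 0.05). A standard error is the fold change on the log2 scale over the square root of F. Means are of TMM-scaled CPM. Gene positions and exonic lengths are from GENCODE M21 (mm10), matched by symbol for 53292 genes (96.4%). Within-group patterns used log2(CPM + 0.5), over genes with a mean of 5 CPM or more. The edgeR and DESeq2 steps were tested on simulated data. The counts of all pairs of libraries within a group differed by more than the sampling of reads alone (chi-square per degree of freedom 24.3 to 410). PCR copies can raise such a value, so it cannot show differences beyond the sampling of molecules.

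The 10 genes and the lists were chosen with earlier results of these data known. Named beside the 10 genes were Dek, sort and cell type markers, up to 4 genes of smallest p from each list, tested neighbours within 100000 bases, and the 5 genes with the most similar within-group pattern. Ctsc was added after its values were seen. Alternatives were relative log expression (RLE) and total-count scaling, no count filter, DESeq2 1.42.0, a block for the replicate number, a covariate for genes detected, leaving out KO replicates 2 and 3 together, and leaving out each library in turn. Deviations from group means of libraries with the same number had correlations of -0.07 to 0.07 over 9853 genes, so no shared deviation was seen. The labels do not say whether the numbers pair libraries, and these correlations cannot settle it.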

Additional observations from a re-analysis of the deposited data

Results flagged for a closer look

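In a group of 4 libraries, 1 value was set far from the other 3 in 5 of the 104 groups of 4 examined; chance flags about 1 in 20 groups. Cst7 stood at 86.3 CPM in KO replicate 3, against 34.4 to 42.7 CPM in the other KO libraries. Wfdc21 stood at 13.9 CPM in KO replicate 3, against 0.65 to 2.71 CPM in the others. Ctsc was at 88.2 CPM in KO replicate 1, below the 104 to 107 CPM of the others, and Ctsz at 563.5 CPM in KO replicate 4, above the 473 to 485 CPM of the others. Plppr3, the gene that overlaps Prtn3, was at 57.0 CPM in FL replicate 2, against 166 to 187 CPM in the other FL libraries; Prtn3 was also lowest of the FL libraries there.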

How the results depend on the processing

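Under total-count scaling 9012 genes were called higher and 886 lower, and 4 of the 10 granule genes were higher. With genes detected as a covariate 107 were higher and 98 lower, and 1 of the 10 granule genes, Slpi, was lower. Without KO replicates 2 and 3, 1000 genes were higher and 1342 lower. Without a count filter 3647 genes were higher, and 3865 with DESeq2. Leaving out each library in turn gave 1459 to 2443 genes higher, lowest without KO replicate 2. Total-count scaling turned the log2 fold change of Prtn3 to 0.064, Ctsc to 0.13, B4galt7 to 0.050, Hmga1b to 0.080, Adssl1 to 0.20 and St3gal3 to 0.18; the covariate turned Ms4a3 to -0.0089. Leaving out 1 library gave -0.15 to 0.23 for Mpo and -0.028 to 0.22 for Nkg7, both negative without FL replicate 2. The cause of these changes was not tested. With the replicate block 1998 genes were higher and 2341 lower, and 0 and 5 of the 10 granule genes. The block ended the call of Mmp9 and of no other gene followed through the alternatives. Wfdc17 was not followed through them. PCR copies without molecular identifiers mean that depth does not bound the error from sampling molecules.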
